A study of Drosophila melanogaster with 14 samples.

Results

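The comparison concerned lola-null mutant embryos of Drosophila melanogaster and their control embryos, 4 of the 14 libraries of the study. They were taken by their sample labels: 2 libraries of mutants and 2 libraries of controls, all of whole embryos. The mutants had the genotype lola E76 / Df(2R)ED2076, that is the lola E76 allele over a deficiency of the region, and the controls had the genotype Wild type / Df(2R)ED2076. The deficiency was thus carried by both groups, and the controls had 1 intact chromosome rather than 2. All 4 libraries were labelled as embryos 15 hours after fertilization; eggs had been laid over 2 h at 25 °C and aged for 13 h, mutants had been picked by hand by their mCherry expression, and controls had been collected alongside. The number of embryos per library of this set, and whether replicates came from separate collections, is not stated in the sources used here, so each p-value measures the spread between these libraries, which may be technical. The other libraries, of lola-F embryos (3 mutants, lola-F stop / Df(2R)ED2076, and 3 controls, Wild type / Df(2R)ED2076, of the same labelled age) and of lola-O adults, enter only where named.

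The gene lola (longitudinals lacking) encodes a large family of transcription factors that share an N-terminal BTB domain and differ, by alternative splicing, in their C-terminal zinc fingers. It is known for its part in the growth and guidance of axons in the embryo. In the late Drosophila embryo neurons extend axons and begin to build synapses, muscles form their contractile apparatus, the gut acquires digestive enzymes, and the epidermis, under a pulse of the steroid hormone ecdysone, secretes the chitin and protein cuticle of the first larva.

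Counts assigned to genes came to 6410485 in mutant 1 and 4178333 in mutant 2, against 4236877 in control 1 and 7098985 in control 2. Levels are in CPM, counts per 1000000 counts of the library size scaled within the set by TMM; they compare libraries, not genes, because they are not divided by gene length. Where 2 values are given for a group, the first is replicate 1 and the second replicate 2. A gene counted as higher or lower where edgeR's quasi-likelihood F test gave a Benjamini-Hochberg adjusted p at or under 0.05 over all genes tested. The mutant libraries were less alike than the controls: over all tested genes the log2 difference between libraries had an SD of 0.82 between the mutants and 0.51 between the controls. Markers of the main tissues of an embryo were present in all 4 libraries, among them the myosin gene Mhc (1784 and 1111 CPM in mutants 1 and 2, against 1461 and 985 CPM in controls 1 and 2) and the glial factor gene repo (39.2 and 66.8 CPM in the mutants against 58.7 and 45.5 CPM in the controls).

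The targeted gene itself was at 1044 and 369 CPM in mutants 1 and 2, against 1016 and 1414 CPM in controls 1 and 2. Mutant 1 thus lay inside the range of the controls, and only mutant 2 lay below it. The fitted difference was not past the threshold (log2 fold change −0.78 ± 0.52 SE, adjusted p = 0.338), and an exact permutation test, two-sided, had p = 0.667, where 0.333 is the smallest value that 2 against 2 libraries allow. Without mutant 1 the log2 fold change of lola was −1.82 (adjusted p = 1.67e-05), and without mutant 2 it was −0.20 (adjusted p = 0.723). The neighbouring gene psq, which encodes another BTB factor (Pipsqueak), was at 198 and 59.8 CPM in the mutants against 226 and 278 CPM in the controls. It too was lowest in mutant 2, and mutant 1 lay below both controls by less, again without passing (log2 fold change −0.96 ± 0.50 SE, adjusted p = 0.211). With the trend of each library with gene length removed, the fold change of lola was positive without passing (0.72, adjusted p = 0.214). The count of lola sums all its isoforms and does not tell whether a transcript is functional, and the gene is listed under a former identifier, so its level checks the label of mutant 1 only in part. The library labelled mutant 1 stays a mutant in every fit, and values are given for both mutant libraries.

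**Figure D1:**
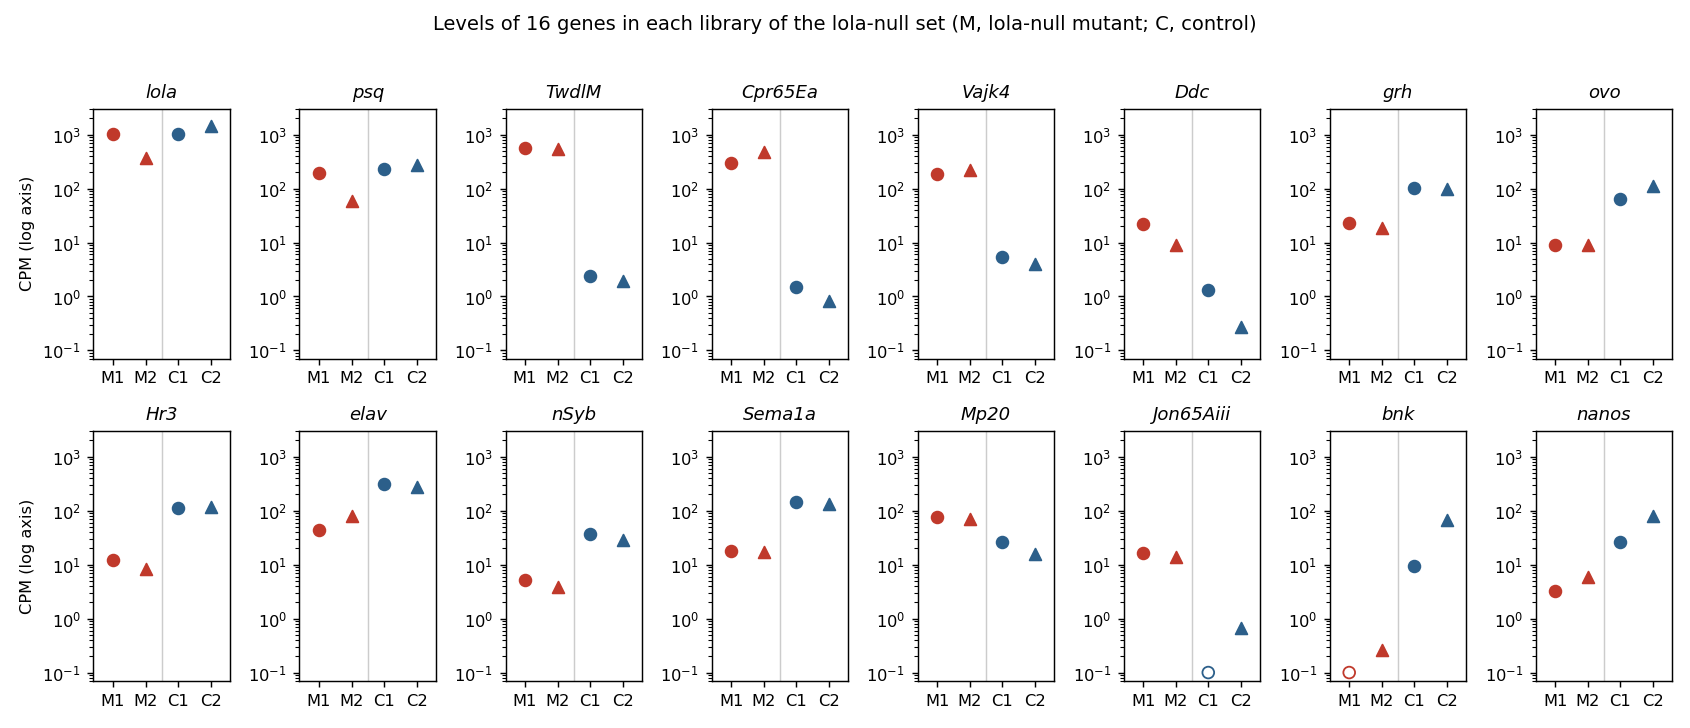
Levels of 16 genes in the 4 libraries in CPM on a log axis, with lola-null mutants (M1, M2) in red left of controls (C1, C2) in blue; circles are replicate 1, triangles replicate 2, and an open symbol at the bottom stands for a count of 0. In the plot of TwdlM the mutants are at 557 and 551 CPM and the controls at 2.39 and 1.91, while for lola mutant 1 (1044) lies between the controls.

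Lola-null embryos differed from their controls in 1570 of the 9288 genes tested (16.9%). Of these, 689 were higher (7.42%) and 881 lower (9.49%), every one by more than 2-fold, and 257 rises and 85 falls exceeded 8-fold. Over all genes the log2 fold change had a median of 0.09, and 2559 genes had an unadjusted p under 0.05. In all 1570 genes both mutant libraries lay on the same side of the control mean, a property that the test favours. The mutants were within 2-fold of each other for 608 of the 689 higher genes and for 655 of the 881 lower ones, which the test favours as well. Single controls carried weight: without control 1 the counts were 345 higher (3.53%) and 332 lower (3.4%), or 6.93% together, and without control 2 they were 266 (2.81%) and 280 (2.95%), or 5.76%. Without mutant 1 they were 1188 and 1924, and without mutant 2 1559 and 1240. With the lola-F libraries in the same fit, which changed the genes tested (10848), the scaling and the spread together, 1818 genes were higher and 831 lower (68.6% higher, against 43.9%), around a median of 0.30. No called gene became a call of the other direction in any of these fits.

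The plot of both mutants against the controls shows where they agreed. Genes called higher or lower ran along the diagonal, as the test favours, and lola, psq, hang and tou lay off it, nearer to the controls in mutant 1 than in mutant 2.

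**Figure D2:**
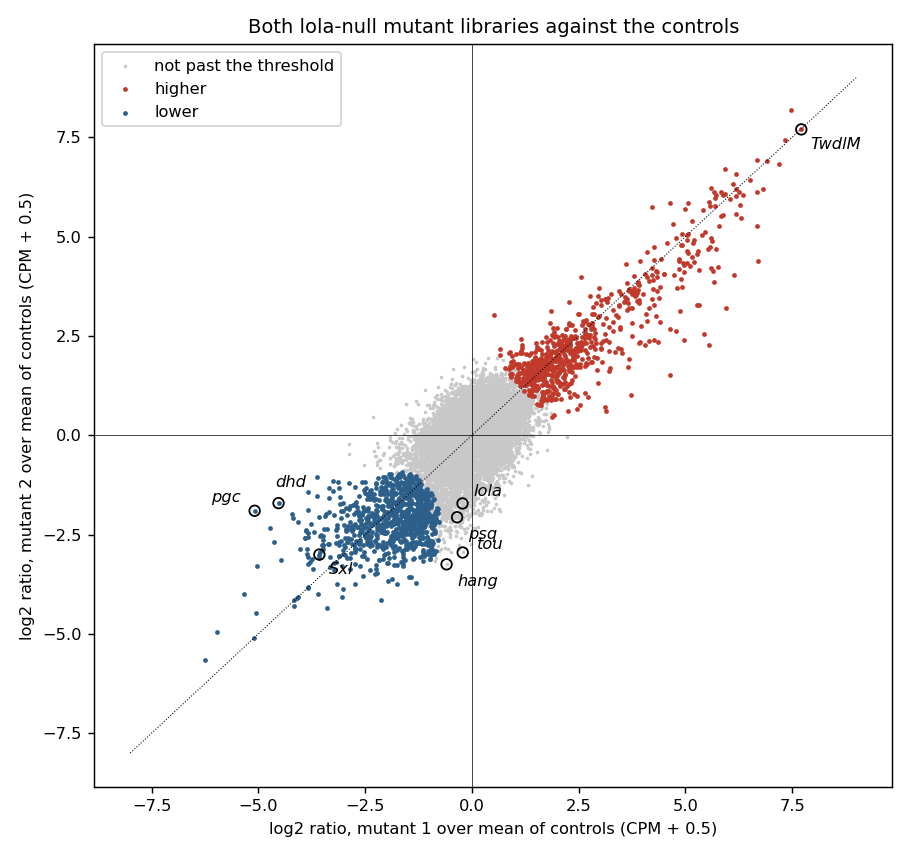
Log2 ratio of each lola-null mutant library over the mean of the controls, for the genes tested, with 0.5 CPM added; mutant 1 is on the x axis and mutant 2 on the y axis, red points were higher, blue points lower and grey points not past the threshold. The dotted line marks equal ratios; TwdlM (7.71 and 7.69) lies on it and lola (−0.22 and −1.72) below it.

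Cuticle protein genes had most of the largest rises. Of the 12 named genes with the largest fitted rise at 5 CPM or more and no overlap between groups, 10 were cuticle genes, and the others were polyph, an amino acid transporter gene, and Acbp4, which encodes an acyl-CoA binding protein; both had no control count and were at least 118-fold and 55.5-fold higher. Of 130 genes in the cuticle lists, 68 passed the filter on low counts and 63 of these were higher and none lower, against 7.42% higher among all genes; the 62 others had at most 4.26 CPM in any library. A cuticle gene nearly silent in the controls could pass that filter only by its level in the mutants, so the count describes the genes that were measurable rather than the family. The Tweedle family, which encodes structural proteins of the soft larval cuticle, had 27 members, of which 20 passed the filter and all 20 were higher. TwdlB held 225 and 174 CPM in the mutants against 1.52 and 0.547 CPM in the controls. TwdlY held 136 and 111 CPM in the mutants against 0.870 and 1.5 CPM in the controls. Both mutant libraries were far above both controls (TwdlB log2 fold change 7.66 ± 0.62 SE, adjusted p = 5.00e-10; TwdlY log2 fold change 6.62 ± 0.56 SE, adjusted p = 1.04e-09). TwdlD held 295 and 499 CPM in the mutants against 4.13 and 4.51 CPM in the controls, the highest Tweedle level in mutant 2 after TwdlM (557 and 551 CPM in the mutants against 2.39 and 1.91 CPM in the controls). TwdlN was less even, with 251 and 86.3 CPM in the mutants against 4.13 and 4.10 CPM in the controls, and still did not overlap (log2 fold change 5.35 ± 0.56 SE, adjusted p = 2.62e-08). Tb (Tubby), a Tweedle gene whose dominant allele makes squat larvae, had no count in either control and 36.1 and 36.2 CPM in mutants 1 and 2; set against 3 counts for the controls together, used as the floor, it was at least 143-fold higher. TwdlQ, also without control counts, was at least 48.3-fold higher.

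Of 99 genes of the Rebers and Riddiford (R and R) family, whose products bind chitin, 44 passed the filter. Of these, 39 were higher, beside 7.42% of all genes. The members that did not pass the test were Cpr11A, Cpr47Ef, Cpr49Ac, Cpr73D and Cpr78Cb. Cpr56F held 74.9 and 69.3 CPM in the mutants against 0.870 and 0.410 CPM in the controls. Ccp84Ag held 74.1 and 83.7 CPM in the mutants against 0.870 and 1.23 CPM in the controls. In both genes the mutants agreed closely and the controls were near the limit of detection (Cpr56F log2 fold change 6.86 ± 0.60 SE, adjusted p = 1.68e-09; Ccp84Ag log2 fold change 6.16 ± 0.55 SE, adjusted p = 1.89e-09). No control count was found for Cpr65Ec, Cpr64Ab, Cpr67Fa1, Ccp84Ae and Lcp65Af, which were at least 146-fold, 125-fold, 63.5-fold, 55.2-fold and 29.6-fold higher in the mutants. Lcp65Ag2, with 2 counts in the controls together, had 80.8 and 52.6 CPM in the mutants against 0.435 and 0 CPM in the controls, a ratio of 416 with an exact 95% counting interval of 114.7 to 3442. Lcp65Ae was uneven between the mutants, at 58.3 and 11.3 CPM in the mutants against 0 and 0.137 CPM in the controls. The members Lcp65Ag1, Lcp65Ag2 and Lcp65Ag3 are near-identical copies, and reads mapped to several places were not counted to any gene, so their split is uncertain. The median log2 fold change over the 68 cuticle genes tested was 5.61, or 5.37 if the 9 genes lacking control counts take their bound, beside 0.09 for all genes.

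The higher genes lay together on the chromosomes to a visible extent. In all, 10 stretches held 5 or more higher genes with gaps of at most 20 kb, and these stretches held 76 genes. The one with most genes, on chromosome 3L from 16264713 to 16345241 (BDGP6.54), held 22 tested genes of which 20 were higher and none lower, and the higher ones had a median of 6.03 on the log2 scale; all 20 carry only CG numbers. CG13049 in that stretch held 54.4 and 84.2 CPM in the mutants against 0.870 and 0.410 CPM in the controls, and CG13043 held 46.0 and 54.9 CPM in the mutants against 4.35 and 4.78 CPM in the controls. In the Lcp65A cluster (3L, 6130386 to 6157377) 8 of 9 tested genes were higher and the other was lower. In the cluster from TwdlM to Tb (3R, 26619118 to 26657531) 8 of 8 were higher, and in the Ccp84A cluster (3R, 6686728 to 6702877) 5 of 5. The stretch on 2R from 8435310 to 8460884 joined the cuticle genes Lcp3 and Lcp4 to the maltase genes Mal-A2, Mal-A3 and Mal-A4 and the cytochrome P450 gene Cyp4ad1. Such counts describe how genes of a family are arranged and were not tested.

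Other genes of the cuticle-secreting epidermis were called in part, where 7.42% of all genes were higher. All 4 Vajk genes, which encode cuticle-associated proteins, were higher. Vajk4 held 184 and 217 CPM in the mutants against 5.44 and 3.96 CPM in the controls, and Vajk3 held 68.2 and 49.8 CPM in the mutants against 6.52 and 5.19 CPM in the controls. The groups were far apart (Vajk4 log2 fold change 5.42 ± 0.52 SE, adjusted p = 4.95e-09; Vajk3 log2 fold change 3.34 ± 0.47 SE, adjusted p = 4.06e-06). Of 22 Osiris genes, a clustered insect-specific family of membrane proteins made by cuticle-forming epithelia, 15 passed the filter and 10 were higher. Osi3 held 61.6 and 51.1 CPM in the mutants against 6.09 and 7.79 CPM in the controls and passed in every alternative fit (log2 fold change 3.01 ± 0.46 SE, adjusted p = 1.34e-05). Osi2 held 148 and 122 CPM in the mutants against 38.7 and 18.3 CPM in the controls and Osi20 held 444 and 363 CPM in the mutants against 120.0 and 76.4 CPM in the controls. The summed level of the Osiris family was 8600 and 7455 CPM in mutants 1 and 2 against 3718 and 2677 CPM in controls 1 and 2. Much of this sum comes from Osi6 and Osi7, which reached 4378 and 1326 CPM in their highest library and were not called. The summed level of the Tweedle family was 2775 and 2674 CPM in mutants 1 and 2 against 63.9 and 108 CPM in controls 1 and 2. Osi2 did not pass without control 2 (adjusted p = 0.315), Osi20 lost its call without either control (adjusted p = 0.183 without control 1 and 0.5 without control 2), and the family's count was 2 without control 1 and 1 without control 2.

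Among 20 tested genes of chitin synthesis, modification and binding, 5 were higher and none lower, beside 7.42% higher and 9.49% lower among all genes. The obstructor gene obst-E, a chitin-binding protein that shapes the larval cuticle, held 47.9 and 60.1 CPM in the mutants against 0.652 and 0.410 CPM in the controls (log2 fold change 6.66 ± 0.62 SE, adjusted p = 3.57e-09). obst-A, another obstructor, held 455 and 390.3 CPM in the mutants against 138 and 131 CPM in the controls, and the chitin deacetylase gene Cda4 held 234 and 246 CPM in the mutants against 78.7 and 87.3 CPM in the controls. Here the controls were well above 0, and neither gene passed without control 1 (adjusted p = 0.457 for obst-A and 0.528 for Cda4) or control 2 (0.578 and 0.522). The list's count was 2 without control 1, 1 without control 2 and 8 without mutant 2. The chitin synthase gene kkv and the deacetylase genes serp and verm did not pass. Of 14 genes of ZP-domain proteins of the apical matrix 1 was higher and 1 lower, 7.14% each, near the shares of all genes. The higher one, zye, held 12.1 and 8.73 CPM in the mutants against 0.435 and 0.137 CPM in the controls (log2 fold change 5.23 ± 0.75 SE, adjusted p = 6.48e-06). The lower one was dpy. For dpy, which encodes a giant matrix protein, the mutants differed widely, at 139 and 35.9 CPM in the mutants against 309 and 234 CPM in the controls (log2 fold change −1.63 ± 0.52 SE, adjusted p = 0.0268), and it lost its call without control 1 (adjusted p = 0.380) or control 2 (0.242); once the trend with gene length was removed its log2 fold change was 0.25. The abundant denticle genes neo and mey did not pass (neo log2 fold change 0.25 ± 0.50 SE, adjusted p = 0.778; mey log2 fold change 0.22 ± 0.48 SE, adjusted p = 0.803). Of 20 tanning and pigment genes 15 passed the filter, and 5 of these were higher, beside 7.42% of all genes. Here too a gene near 0 in the controls could pass only by its mutant level, and 0 were higher when 10 counts were required in all 4 libraries. The 5 were led by Ddc, the dopa decarboxylase of cuticle sclerotization, at 21.6 and 8.99 CPM in the mutants against 1.30 and 0.273 CPM in the controls (log2 fold change 4.41 ± 0.70 SE, adjusted p = 2.46e-05). The count was 3 without control 1 and 1 without control 2.

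Transcription factor genes listed for the epidermis moved the other way. Of 14 such genes, 11 were lower and none higher, against 9.49% lower among all genes, and all 14 had mutant levels below both controls (26.7% of all genes did). Of the 11, ftz-f1 and Blimp-1 also count in the ecdysone list, ttk and rib in the BTB list, and SoxN in the neuroblast list. The tracheal list shares trh and vvl, and the amnioserosa list shares tup. Grainy head, encoded by grh, drives genes of the cuticle barrier; grh held 23.4 and 18.2 CPM in the mutants against 103 and 96.2 CPM in the controls (log2 fold change −2.25 ± 0.42 SE, adjusted p = 2.38e-04). ovo, whose shavenbaby isoforms direct denticle formation, held 9.18 and 8.99 CPM in the mutants against 63.7 and 109.6 CPM in the controls. vvl, a POU-domain factor of epidermis and trachea, held 19.3 and 20.3 CPM in the mutants against 135 and 125 CPM in the controls. The mutants were nearly equal and the groups well separated in each, and all 3 passed in every alternative fit (ovo log2 fold change −3.25 ± 0.46 SE, adjusted p = 4.25e-06; vvl log2 fold change −2.72 ± 0.43 SE, adjusted p = 2.89e-05). Without control 1 or without control 2, 6 genes of the list were lower and 7 were when the trend of each library with gene length was removed.

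**Figure D3:**
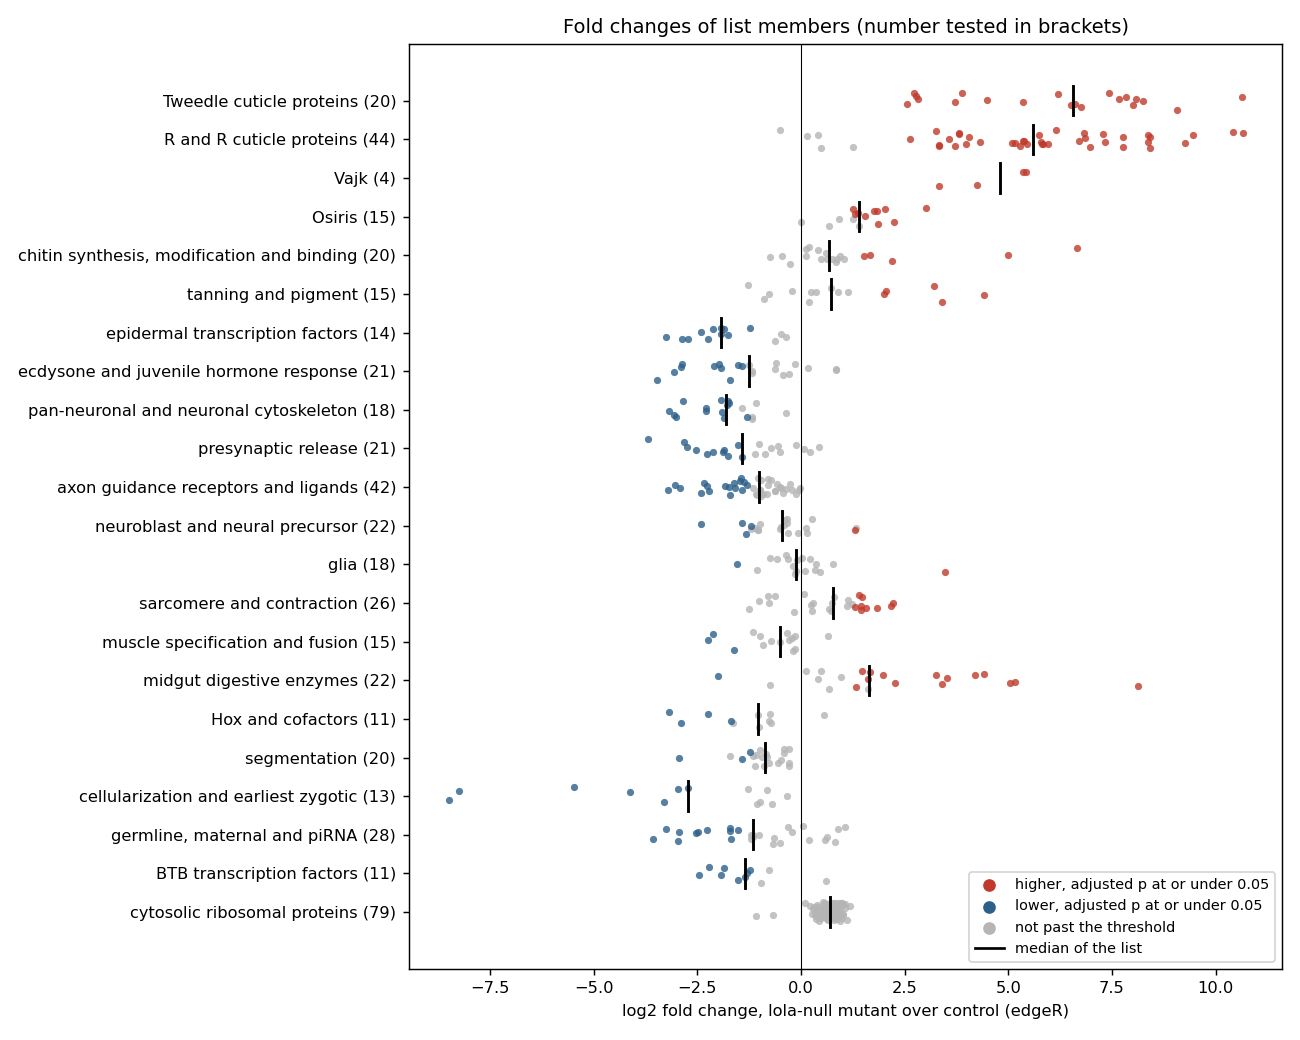
Log2 fold change, lola-null mutant over control, of the tested members of 22 gene lists, 1 point per gene; red points were higher, blue points lower, grey points not past the threshold, and black bars mark the median of each list. The Tweedle and R and R cuticle lists have medians of 6.57 and 5.61, and the epidermal transcription factor list −1.93.

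Of 21 tested genes of the ecdysone and juvenile hormone response 10 were lower in the mutants, beside 9.49% of all genes, and none higher. Hr3 is a nuclear receptor induced by the hormone pulse, and Eip75B is an early response gene of the same receptor family. Eip75B held 13.8 and 18.2 CPM in the mutants against 132 and 107 CPM in the controls, and Hr3 held 12.5 and 8.22 CPM in the mutants against 114 and 118 CPM in the controls. The mutants were alike and lay far below the controls (Eip75B log2 fold change −2.90 ± 0.44 SE, adjusted p = 1.49e-05; Hr3 log2 fold change −3.47 ± 0.46 SE, adjusted p = 1.53e-06). Blimp-1, an ecdysone-induced repressor that sets the timing of later genes, held 2.13 and 4.36 CPM in the mutants against 17.0 and 29.0 CPM in the controls (log2 fold change −2.87 ± 0.54 SE, adjusted p = 2.64e-04). The count for the list was 6 without control 1, 3 without control 2 and 6 with the length trend removed. Few genes of hormone synthesis could be tested: spo, which acts early in the pathway, had 1 count in the mutants together, at 0 and 0.257 CPM in the mutants against 5.87 and 3.28 CPM in the controls, a mutant over control ratio of 0.0234 (exact 95% counting interval 5.80e-04 to 0.136). Its fellow genes shd (log2 fold change −1.10 ± 0.63 SE, adjusted p = 0.264) and Cyp18a1, which inactivates the hormone (log2 fold change 0.54 ± 0.42 SE, adjusted p = 0.424), did not pass.

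Neuronal genes were lower or did not pass. Of 18 pan-neuronal and neuronal cytoskeleton genes 13 were lower, beside 9.49% of all genes, and none higher, and 17 had both mutants below both controls, beside 26.7% of all genes. bru3, an RNA-binding protein gene, held 6.23 and 10.8 CPM in the mutants against 85.9 and 66.1 CPM in the controls. scrt, the zinc finger factor scratch of postmitotic neurons, held 8.85 and 9.24 CPM in the mutants against 75.5 and 54.5 CPM in the controls. Both passed in every alternative fit (bru3 log2 fold change −3.18 ± 0.46 SE, adjusted p = 7.06e-06; scrt log2 fold change −2.84 ± 0.45 SE, adjusted p = 2.27e-05). The neuronal RNA-binding gene elav, chosen for mention after its values were seen, held 44.6 and 78.1 CPM in the mutants against 316 and 279 CPM in the controls (log2 fold change −2.28 ± 0.48 SE, adjusted p = 7.72e-04). In whole embryos fewer neurons and less RNA per neuron cannot be told apart, and this holds for every tissue below. Of 21 genes of presynaptic release 11 were lower: Syx1A, a syntaxin of the vesicle fusion machinery, held 10.00 and 6.42 CPM in the mutants against 49.4 and 47.1 CPM in the controls, and the vesicle calcium sensor gene Syt1 held 4.26 and 5.14 CPM in the mutants against 39.4 and 24.1 CPM in the controls (Syx1A log2 fold change −2.54 ± 0.46 SE, adjusted p = 1.43e-04; Syt1 log2 fold change −2.75 ± 0.50 SE, adjusted p = 1.64e-04). Per library the median log2 ratio over the control mean was −1.65 in mutant 1 and −2.03 in mutant 2 for the pan-neuronal list, and −0.86 and −1.77 for the presynaptic list. Without control 1 and without control 2, 6 and 6 pan-neuronal genes and 6 and 5 presynaptic genes were lower; with the length trend removed the counts were 5 and 7, and without mutant 1 17 presynaptic genes were lower.

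Most genes of transmission did not pass. Of 28 tested genes of transmitter synthesis, transport and receptors 5 were lower, beside 9.49% of all genes, among them GABA-B-R1, a metabotropic GABA receptor gene, at 0 and 0.257 CPM in the mutants against 7.18 and 5.74 CPM in the controls, and nAChRalpha3, a nicotinic receptor subunit gene, at 1.47 and 0.514 CPM in the mutants against 10.4 and 4.78 CPM in the controls. The single count of GABA-B-R1 in the mutants gave a mutant over control ratio of 0.0159 (exact 95% counting interval 3.97e-04 to 0.0913). nAChRalpha3 did not pass without control 1 (adjusted p = 0.171), and the count was then 1, or 2 without control 2 and 8 without mutant 1. Of 16 ion channel genes 3 were lower and 1 higher: unc80, an accessory subunit of a sodium leak channel, held 52.8 and 28.5 CPM in the mutants against 17.0 and 13.5 CPM in the controls (log2 fold change 1.42 ± 0.45 SE, adjusted p = 0.0244), and did not pass without control 1 (adjusted p = 0.252), control 2 (0.522) or mutant 1 (0.109). The count of lower channel genes was 1 without control 1 and 7 without mutant 1. With the length trend removed no channel gene was lower; the list's exonic lengths have a median of 10225 bases.

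Axon guidance genes, the class for which lola is best known, were lower or did not pass. Of 42 tested receptors and ligands 17 were lower, beside 9.49% of all genes, and none higher. All 42 had a negative fold change, and 33 had both mutants below both controls, beside 26.7% of all genes. Con (connectin) and caps (capricious) encode leucine-rich repeat adhesion proteins of motor axons and their target muscles. Con held 9.67 and 13.4 CPM in the mutants against 62.0 and 59.2 CPM in the controls, and caps held 13.6 and 12.3 CPM in the mutants against 65.0 and 59.3 CPM in the controls. Both mutants were at a similar low level in each (Con log2 fold change −2.40 ± 0.44 SE, adjusted p = 1.60e-04; caps log2 fold change −2.26 ± 0.43 SE, adjusted p = 2.58e-04). Sema2b, a secreted guidance cue, held 4.59 and 4.88 CPM in the mutants against 44.4 and 42.8 CPM in the controls, and Sema1a, a membrane semaphorin, held 17.5 and 16.9 CPM in the mutants against 147 and 134 CPM in the controls. These 4 genes passed in every alternative fit. The remainder of the list depended on the library: the median log2 ratio was −0.71 in mutant 1 and −1.68 in mutant 2. Without mutant 1, 36 genes were lower. Without control 1 or without control 2, 6 were, and with the length trend removed 8.

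Most genes of neural precursors and glia did not pass. Of 22 neuroblast and precursor genes 4 were lower and 1 higher, beside 9.49% lower and 7.42% higher among all genes. SoxN, a factor of the early neuroectoderm, held 6.55 and 9.24 CPM in the mutants against 48.3 and 35.9 CPM in the controls (log2 fold change −2.42 ± 0.47 SE, adjusted p = 3.19e-04). ase (asense), a proneural gene of neuroblasts, was the higher one, at 23.8 and 31.1 CPM in the mutants against 10.0 and 12 CPM in the controls (log2 fold change 1.31 ± 0.46 SE, adjusted p = 0.0458), and the list had no higher gene without control 1 or without control 2. One gene of the list was lower in each of those fits, SoxN, and 7 were without mutant 1 or without mutant 2. Of 18 glial genes 1 was higher and 1 lower, 5.56% each, below the shares of all genes. The glutamate transporter gene Eaat1 was higher, at 8.36 and 3.34 CPM in the mutants against 0.870 and 0.273 CPM in the controls. The ETS factor gene pnt was lower, at 13.3 and 19.3 CPM in the mutants against 51.3 and 42.5 CPM in the controls. The remaining 16 did not pass, among them repo (log2 fold change 0.02 ± 0.41 SE, adjusted p = 0.979) and loco (log2 fold change 0.10 ± 0.45 SE, adjusted p = 0.917). The glial factor gene gcm did not pass either (log2 fold change −0.75 ± 0.45 SE, adjusted p = 0.294). Eaat1 did not pass without control 2 (adjusted p = 0.145) or without mutant 1 (0.0756), and pnt lost its call without control 1 (0.257) or control 2 (0.149).

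Most muscle genes did not pass, where 7.42% of all genes were higher and 9.49% lower. Of 26 sarcomere and contraction genes 9 were higher, beside 7.42% of all genes, and none lower, such as Mp20, a calponin-like muscle protein gene, at 76.7 and 71.1 CPM in the mutants against 25.9 and 16 CPM in the controls, and the larval actin gene Act87E at 137 and 112 CPM in the mutants against 41.1 and 42.5 CPM in the controls. In both genes the mutants lay above the controls without overlap, as did 29.3% of all genes (Mp20 log2 fold change 1.83 ± 0.42 SE, adjusted p = 0.00219; Act87E log2 fold change 1.57 ± 0.42 SE, adjusted p = 0.00727). Mhc did not pass (log2 fold change 0.24 ± 0.49 SE, adjusted p = 0.784). None of the 9 calls was made with only 1 control in the fit: adjusted p-values of Mp20 were 0.0736 without control 1 and 0.402 without control 2. Of 15 genes of muscle specification and fusion 3 were lower and none higher, or 5 lower without mutant 1 and none with the length trend removed. kirre, an adhesion protein of founder myoblasts, held 5.57 and 8.47 CPM in the mutants against 31.5 and 33.9 CPM in the controls, and sd, the TEAD factor scalloped, held 27.2 and 28.2 CPM in the mutants against 124 and 118 CPM in the controls (kirre log2 fold change −2.23 ± 0.48 SE, adjusted p = 9.91e-04; sd log2 fold change −2.12 ± 0.42 SE, adjusted p = 4.65e-04). Both lost their call with the length trend removed. The third, how, did not pass without control 1 (adjusted p = 0.269) or control 2 (0.343).

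Of 53 genes listed for midgut digestion 22 passed the filter, and 14 of these were higher, beside 7.42% of all genes. Besides genes of digestive enzymes the list holds the Npc2 genes, Mur18B and Peritrophin-A. Of these, Npc2b, Npc2g, Mur18B and Peritrophin-A were among the 14. As with the cuticle, a gene near 0 in the controls could pass the filter only by its mutant level, and 6 were higher when 10 counts were required in all 4 libraries. Jon65Aiii, a serine protease gene, held 16.4 and 14.1 CPM in the mutants against 0 and 0.683 CPM in the controls. LManV, a lysosomal mannosidase gene, held 18.2 and 12.1 CPM in the mutants against 1.09 and 0.410 CPM in the controls. Mutant levels of both were low in absolute terms, and controls were near 0 (LManV log2 fold change 4.41 ± 0.65 SE, adjusted p = 1.01e-05). zetaTry, a trypsin gene without control counts, was at least 24.8-fold higher. The one gene lower was Mal-B2, a maltase gene, which was not called without control 2. The count of higher genes was 9 without control 1 and 6 without control 2. Of 9 genes listed for endoderm and midgut development 4 were lower and none higher, beside 9.49% lower among all genes. The endoderm factor genes GATAe and Hnf4 did not pass. Of the 4, fkh, srp and Ubx also count in the salivary gland, hemocyte and Hox lists. The FoxA factor gene of gut and salivary gland, fkh, held 3.11 and 8.47 CPM in the mutants against 50.9 and 55.9 CPM in the controls (log2 fold change −3.25 ± 0.50 SE, adjusted p = 1.77e-05). The Hox gene Ubx held 7.87 and 12.6 CPM in the mutants against 48.7 and 46.7 CPM in the controls (log2 fold change −2.23 ± 0.45 SE, adjusted p = 5.34e-04). The others, srp and dpp, did not pass without control 1 (adjusted p = 0.283 and 0.226) or control 2 (0.175 and 0.239).

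In the lists of trachea, salivary gland and amnioserosa every gene called was lower, where 9.49% of all genes were lower. Of 9 tracheal genes 4 were lower and 5 had a positive log2 fold change, with a median of 0.13 over the list. The called genes trh and vvl also count in the epidermal factor list, and uif, serp, verm, Gasp and sinu did not pass. Lower too was sty (sprouty), a feedback inhibitor of receptor tyrosine kinase signalling. It held 4.26 and 11 CPM in the mutants against 74.6 and 61.0 CPM in the controls (log2 fold change −3.18 ± 0.48 SE, adjusted p = 1.44e-05). Of 9 salivary gland genes 4 were lower; CrebA, which drives secretory capacity, held 17.9 and 17.5 CPM in the mutants against 113 and 94.0 CPM in the controls (log2 fold change −2.55 ± 0.43 SE, adjusted p = 5.88e-05). Of 9 amnioserosa genes 3 were lower, among them peb (hindsight) at 15.9 and 13.1 CPM in the mutants against 92.4 and 79.3 CPM in the controls (log2 fold change −2.56 ± 0.43 SE, adjusted p = 5.23e-05). Leaving out control 1 or control 2 left 2 calls in each of these lists. The basement membrane list had no call in 10 genes by edgeR or DESeq2 (1 gene at an unadjusted p under 0.05). It had 3 higher with the length trend removed, 2 higher with the lola-F libraries in the same fit, 1 higher and 3 lower without mutant 1, and 2 higher without mutant 2. In it, the laminin gene LanA was at 1080.4 and 809.5 CPM in the mutants against 1535 and 1384 CPM in the controls. Among 8 hemocyte genes 1 was lower, srp, and the prophenoloxidase gene PPO2 of crystal cells was at 329.9 and 571 CPM in the mutants against 211 and 230.3 CPM in the controls (log2 fold change 1.03 ± 0.48 SE, adjusted p = 0.156). In septate junctions, 2 of 20 genes were lower, a share near the 9.49% of all genes: dlg1 and Atpalpha. The count was 0 without control 1 or without control 2 and 7 without mutant 1. Atpalpha, the sodium pump subunit, held 151 and 101 CPM in the mutants against 558 and 484 CPM in the controls; neither it nor dlg1 passed without control 1 (adjusted p = 0.192 for Atpalpha and 0.246 for dlg1) or control 2 (0.155 and 0.312). For srp these values were 0.283 and 0.175.

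Among patterning genes most did not pass. Of all genes 9.49% were lower, a share to set beside each count below. Of 11 Hox genes and cofactors 4 were lower and none higher (7 lower without mutant 1): Antp held 4.75 and 8.22 CPM in the mutants against 56.1 and 60.3 CPM in the controls, and the cofactor gene hth (homothorax) held 34.6 and 40.6 CPM in the mutants against 305 and 256 CPM in the controls. Each mutant library was far below each control (Antp log2 fold change −3.19 ± 0.47 SE, adjusted p = 9.50e-06; hth log2 fold change −2.90 ± 0.47 SE, adjusted p = 3.50e-05). Ubx, given above, and abd-A were the others, and abd-A did not pass without control 1 (adjusted p = 0.134) or control 2 (0.147). Of 20 segmentation genes 3 were lower, beside 9.49% of all genes (1 without control 1 or without control 2, and 7 without mutant 2), and nkd (naked cuticle), an antagonist of Wingless signalling, passed in every alternative fit at 11.3 and 12.6 CPM in the mutants against 101 and 83.2 CPM in the controls (log2 fold change −2.95 ± 0.43 SE, adjusted p = 9.50e-06). Of 9 tested BTB factor genes other than lola and psq 8 were lower, with chinmo, a factor of neuronal temporal identity, at 43.4 and 30.3 CPM in the mutants against 239 and 170.3 CPM in the controls, and bab2 at 18.0 and 14.9 CPM in the mutants against 78.1 and 76.7 CPM in the controls (chinmo log2 fold change −2.47 ± 0.45 SE, adjusted p = 1.82e-04; bab2 log2 fold change −2.23 ± 0.42 SE, adjusted p = 2.50e-04). Without control 1 or without control 2, 2 BTB genes were lower, and with the replicate number as a block 3.

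Some genes of the first hours of development had almost no mutant counts. Of 16 genes of cellularization and earliest zygotic expression 13 passed the filter, and 7 of these were lower, beside 9.49% of all genes, and none higher. A gene near 0 in the mutants could pass the filter only by its control level, and 1 was lower when 10 counts were required in all 4 libraries. bnk (bottleneck), needed for cellularization, held 0 and 0.257 CPM in the mutants against 9.35 and 66.1 CPM in the controls. halo, of the same period, held 0 and 0 CPM in the mutants against 1.96 and 14.1 CPM in the controls. Mutants had 1 count of bnk and none of halo, and in both genes control 2 was several times above control 1. halo was at least 26.7-fold lower against the floor of 3 counts over the mutant group. For bnk the mutant over control ratio was 0.00226 (exact 95% counting interval 5.72e-05 to 0.0127). Outside the list, Elba1 and Elba3 encode subunits of an insulator complex of the early embryo. The third subunit gene, Elba2, held 254 and 197 CPM in the mutants against 121 and 216 CPM in the controls and did not pass (log2 fold change 0.42 ± 0.46 SE, adjusted p = 0.598). Elba1 had no mutant count and 2.39 and 14.5 CPM in the controls, and was at least 28.1-fold lower. Elba3 held 0 and 0.770 CPM in the mutants against 8.92 and 12.3 CPM in the controls, with 3 mutant counts and a ratio of 0.0273 (exact 95% counting interval 0.00556 to 0.0815). SNCF had no mutant count and 6.96 and 26.6 CPM in the controls, at least 56.0-fold lower. Without control 2 halo and Elba1 were not tested. The summed level of all 16 genes of the list was 334.6 and 171.3 CPM in mutants 1 and 2, against 420.1 and 770.4 CPM in controls 1 and 2. This sum includes slam, which reached 428 CPM in a single library and was not called. The gastrulation genes twi, sna and fog did not pass.

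Maternal and germline transcripts were lower or did not pass. Of 28 tested genes 11 were lower and none higher, beside 9.49% lower and 7.42% higher among all genes. Of the 28 log2 fold changes 21 were negative and 7 positive. With the lola-F libraries in the same fit 7 genes were lower and 1 higher. The calls also changed in fits without 1 library, in either direction. nanos, a translational repressor of the germ plasm, held 3.28 and 5.91 CPM in the mutants against 26.5 and 80.5 CPM in the controls, and bru1, the translational repressor Bruno, held 18.0 and 24.9 CPM in the mutants against 114 and 219.9 CPM in the controls. For both, control 2 was above control 1 and both mutants were lower still (nanos log2 fold change −3.58 ± 0.54 SE, adjusted p = 1.40e-05; bru1 log2 fold change −2.97 ± 0.47 SE, adjusted p = 2.40e-05). Pxt, a peroxidase gene of the ovary, held 5.08 and 18.0 CPM in the mutants against 113 and 249 CPM in the controls (log2 fold change −4.00 ± 0.55 SE, adjusted p = 3.56e-06). For the RNA-binding gene orb the call was lost without control 2 (adjusted p = 0.345). The germ cell gene pgc and the maternal thioredoxin gene dhd were lower too and differed between the mutants. pgc held 0.655 and 10.0 CPM in the mutants against 34.4 and 43.2 CPM in the controls, and dhd 22.5 and 161 CPM in the mutants against 722 and 336 CPM in the controls. Without control 1 dhd did not pass (adjusted p = 0.188). Among piRNA genes krimp and tud were lower, and piwi, aub, AGO3, zuc, spn-E and tej did not pass. Of 39 cell cycle and DNA replication genes 4 were lower, a share near the 9.49% of all genes (1 without control 2, 12 without mutant 1, and 10 lower and 4 higher without mutant 2); E2f1, the S-phase factor, held 15.7 and 21.1 CPM in the mutants against 119 and 159 CPM in the controls (log2 fold change −2.93 ± 0.45 SE, adjusted p = 1.52e-05), while stg did not pass without control 1 (adjusted p = 0.0964) or control 2 (0.514), nor fzr and CycE without control 2 (0.205 and 0.849). Transcripts of young embryos, like the cuticle and ecdysone genes of older ones, therefore differed between the groups, and their part in the other differences was not tested. Mutants and controls were labelled with the same age, and whether they were at the same developmental stage was not tested.

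Sex determination genes were called in 3 of 13 cases, all lower, beside 9.49% lower among all genes. Sxl held 14.9 and 22.3 CPM in the mutants against 169 and 196 CPM in the controls (log2 fold change −3.30 ± 0.46 SE, adjusted p = 4.15e-06), and sisA, an X-linked signal element of the early embryo, held 0.328 and 0.257 CPM in the mutants against 20.01 and 8.88 CPM in the controls, with 3 counts in the mutants together and a mutant over control ratio of 0.0228 (exact 95% counting interval 0.00465 to 0.0678). The dosage compensation RNA roX1 was at 129 and 151 CPM in the mutants against 338 and 385 CPM in the controls (log2 fold change −1.37 ± 0.46 SE, adjusted p = 0.0391), and did not pass without control 1 (adjusted p = 0.427) or control 2 (0.655). By chromosome, lower genes made up 13.2% of the 1520 tested on X and 14.8% of the 81 on chromosome 4, against 9.35% on 2L, 6.75% on 2R, 9.49% on 3L and 8.76% on 3R. No gene of chromosome 4 was higher, and the shares were not tested against each other.

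Calls among genes of growth and metabolism differed from list to list. Of 79 tested cytosolic ribosomal protein genes none passed in edgeR or in DESeq2, with 4 higher and 1 lower at an unadjusted p under 0.05 in edgeR. The mutants differed here: the median log2 ratio over the controls was 0.13 in mutant 1 and 1.09 in mutant 2. Summed over the genes, the level was 140784 and 257811 CPM in mutants 1 and 2, against 132692 and 108558 CPM in controls 1 and 2. The 70 mitochondrial ribosomal protein genes (medians 0.13 and 1.01) and the 58 nuclear genes of the respiratory chain (0.13 and 1.05) split in the same way, with 1 call and none (9 and 4 genes higher at an unadjusted p under 0.05). Without mutant 1, 57, 46 and 47 genes of these 3 lists were higher, and 33, 28 and 30 were with the lola-F libraries in the same fit. Of 12 glycolysis genes 4 were lower, beside 9.49% of all genes (none without control 1 and 1 without control 2), such as Tpi at 12.9 and 22.9 CPM in the mutants against 93.5 and 46.7 CPM in the controls and Gapdh2 at 47.7 and 75.7 CPM in the mutants against 287 and 181 CPM in the controls; Tpi did not pass without control 1 (adjusted p = 0.252), and Gapdh2 lost its call without control 1 (0.252) or control 2 (0.0784). Among 101 cytochrome P450, glutathione transferase and glycosyltransferase genes, 25 were higher, beside 7.42% of all genes, and 2 lower; Ugt37B1, a glycosyltransferase gene, held 16.9 and 14.1 CPM in the mutants against 2.17 and 1.91 CPM in the controls (log2 fold change 2.92 ± 0.55 SE, adjusted p = 2.29e-04), and the count of higher genes was 6 without control 1 and 1 without control 2. The small heat shock gene Hsp27, an ecdysone-inducible member of its family, held 8.19 and 11.6 CPM in the mutants against 124 and 81.3 CPM in the controls (log2 fold change −3.38 ± 0.46 SE, adjusted p = 2.51e-06), whereas l(2)efl, another of that family, held 58.3 and 73.4 CPM in the mutants against 24.6 and 20.4 CPM in the controls, and did not pass without control 1 (adjusted p = 0.215) or control 2 (0.448).

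The mutant libraries differed from each other by more than 4-fold in 101 of the genes tested, and the controls in 27. Among 6096 genes at 20 CPM or more, 53 were over 4-fold higher in mutant 1 than in mutant 2, and 10 the other way. Exonic length here joins the exons of all isoforms of a gene. Its median was 8463 bases over the 53 and 1111 over the 10, against 2405 over all. Nup153, a nuclear pore gene, held 492 and 74.7 CPM in the mutants against 469.7 and 525 CPM in the controls, and hang, a zinc finger gene, held 398 and 62.6 CPM in the mutants against 539.5 and 660.3 CPM in the controls. In Nup153 mutant 1 lay between the controls, in hang it lay below both, and in each mutant 2 was far lower (Nup153 log2 fold change −0.81 ± 0.57 SE, adjusted p = 0.374; hang log2 fold change −1.38 ± 0.58 SE, adjusted p = 0.107). Conversely the maternal tubulin gene alphaTub67C was at 3.44 and 22.9 CPM in the mutants against 49.1 and 46.9 CPM in the controls, with mutant 1 the lower, and did not pass without control 1 (adjusted p = 0.0724) or control 2 (0.0675). Length also ran with the comparison itself: its median was 1378 bases in higher genes and 5005 in lower genes, against 2153 for all, and across genes, which are not independent replicates, Spearman's rho of the log2 fold change with length was −0.49. Within libraries, rho of a gene's deviation from the set mean with length was −0.09 in mutant 1, −0.61 in mutant 2, 0.36 in control 1 and 0.52 in control 2. With that trend removed, 816 genes were higher and 699 lower (53.9% higher, against 43.9%), and 602 and 554 of the original calls were among them. The part of length, or of what goes with it in RNA quality, in single results was not tested.

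The surroundings of lola were examined because both groups carry the deficiency and the mutants the lola E76 chromosome. Within 250 kb of the gene (2R, 10481894 to 10543291, minus strand) 75 genes were listed and 37 tested. Of these, 4 were higher and 3 lower, a share near the 16.9% of all genes. Hr3, given above, Galphao (30.8 and 33.4 CPM in the mutants against 143 and 182 CPM in the controls) and Caf1-105 were lower, and Obp46a, Cyp49a1, CG11825 and CG7220 higher. Galphao encodes a G protein subunit abundant in neurons. Among the 37, 5 were more than 2-fold higher in mutant 1 than in mutant 2 (12.3% of all genes were), and the median log2 difference between the mutants was 0.25, against −0.01 for all. lola and psq, side by side on the chromosome, were 2 of these 5.

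**Figure D4:**
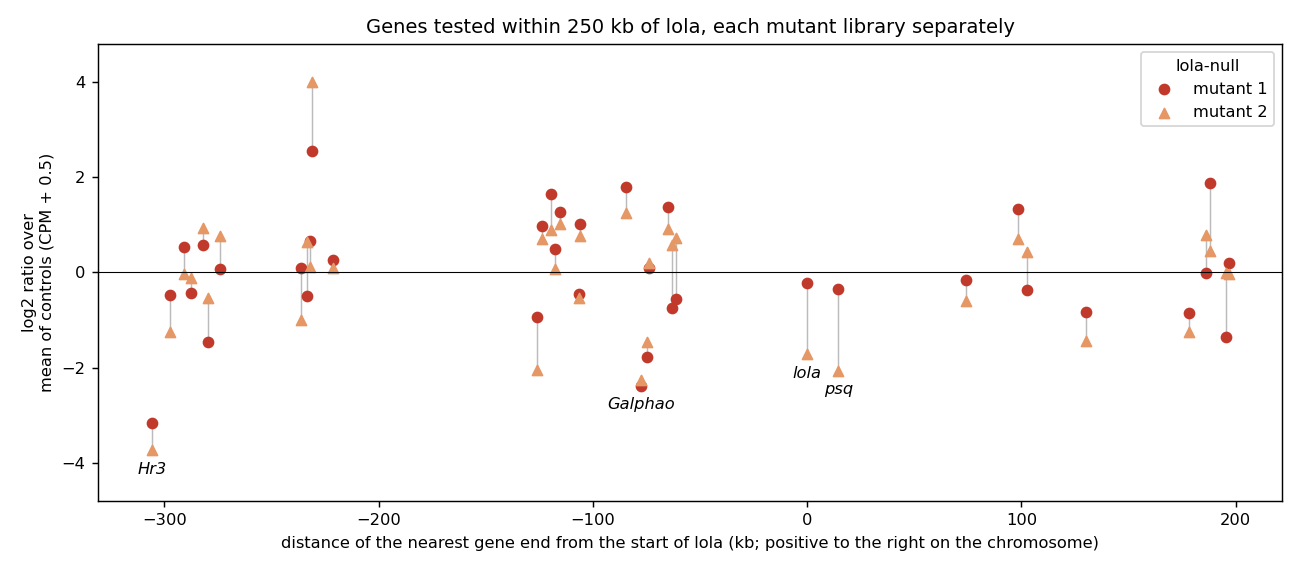
Log2 ratio over the mean of the controls, with 0.5 CPM added, for the 37 genes tested within 250 kb of lola, with mutant 1 as red circles and mutant 2 as orange triangles joined per gene; the x axis is the distance from the start of lola in kb. lola (−0.22 and −1.72) and psq (−0.35 and −2.06) show mutant 1 near 0 and mutant 2 below it, while Hr3 and Galphao are low in both.

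The lola-null effect was set against the effect of losing the lola-F isoform alone, in 1 model of the 10 embryo libraries. The difference of the effects passed in 932 of 10848 genes (8.59%): 749 were higher (6.9%) and 183 lower (1.69%). The median difference over all genes was 0.31 on the log2 scale, and −0.20 without the filter on low counts, where 521 genes were higher and 521 lower. It was also negative without lola-F control 3 (−0.20), lola-F mutant 1 (−0.18) or lola-F mutant 2 (−0.17). In the other fits without 1 library it lay between 0.18 and 0.33. Leaving out single libraries moved these counts: higher genes numbered 438 and 445 without lola-F controls 2 and 3, 283 and 277 without lola-F mutants 1 and 2, 439 and 241 without lola-null controls 1 and 2, and 1342 without lola-null mutant 2. Lower genes numbered 92, 61 and 510 without lola-F controls 1, 2 and 3, and 103 and 52 without lola-null controls 1 and 2. Of the 4 higher genes with the smallest p, 3 were cuticle genes, and their levels here are scaled over both embryo sets. Cpr56F held 38.4 ± 2.12 CPM in lola-F mutants and 28.1 ± 2.17 CPM in lola-F controls (SD, n = 3 each), and Cpr65Ec held 14.8 ± 2.06 CPM in lola-F mutants and 16.7 ± 2.51 CPM in lola-F controls (SD, n = 3 each). Both genes were thus on in lola-F embryos of either genotype, whereas lola-null controls had 0.41 to 0.87 CPM of Cpr56F and none of Cpr65Ec on the scale of their own set. The effects differed by 6.61 for Cpr56F, and for Cpr65Ec the fitted difference, 11.42, rests on a group without counts and is no measure of size. Of the 63 cuticle genes higher in lola-null mutants, 23 had a mean under 1 CPM in the lola-F controls and 14 a mean over 50 CPM. TwdlD belonged to the first kind, at 299 and 437 CPM in lola-null mutants 1 and 2 and 0.595, 0.453 and 0.0923 CPM in the 3 lola-F controls, and Lcp65Ag3 to the second, at 90.8 and 51.2 CPM in lola-null mutants 1 and 2 and 1233, 1244 and 1101 CPM in the 3 lola-F controls. Nothing in the labels sets the ages of the embryo sets apart, and whether the sets were of the same age was not tested. At the other end, pyr, an FGF ligand gene, held 1.31 and 2.31 CPM in the mutants against 18.7 and 17.6 CPM in the controls within the lola-null set, and sn, the fascin gene singed, held 43.9 and 51.4 CPM in the mutants against 206 and 262 CPM in the controls. Within the lola-null set sn did not pass without control 2 (adjusted p = 0.0765). Their effect differed from that in lola-F mutants by −2.85 and −1.79 on the log2 scale.

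**Figure D5:**
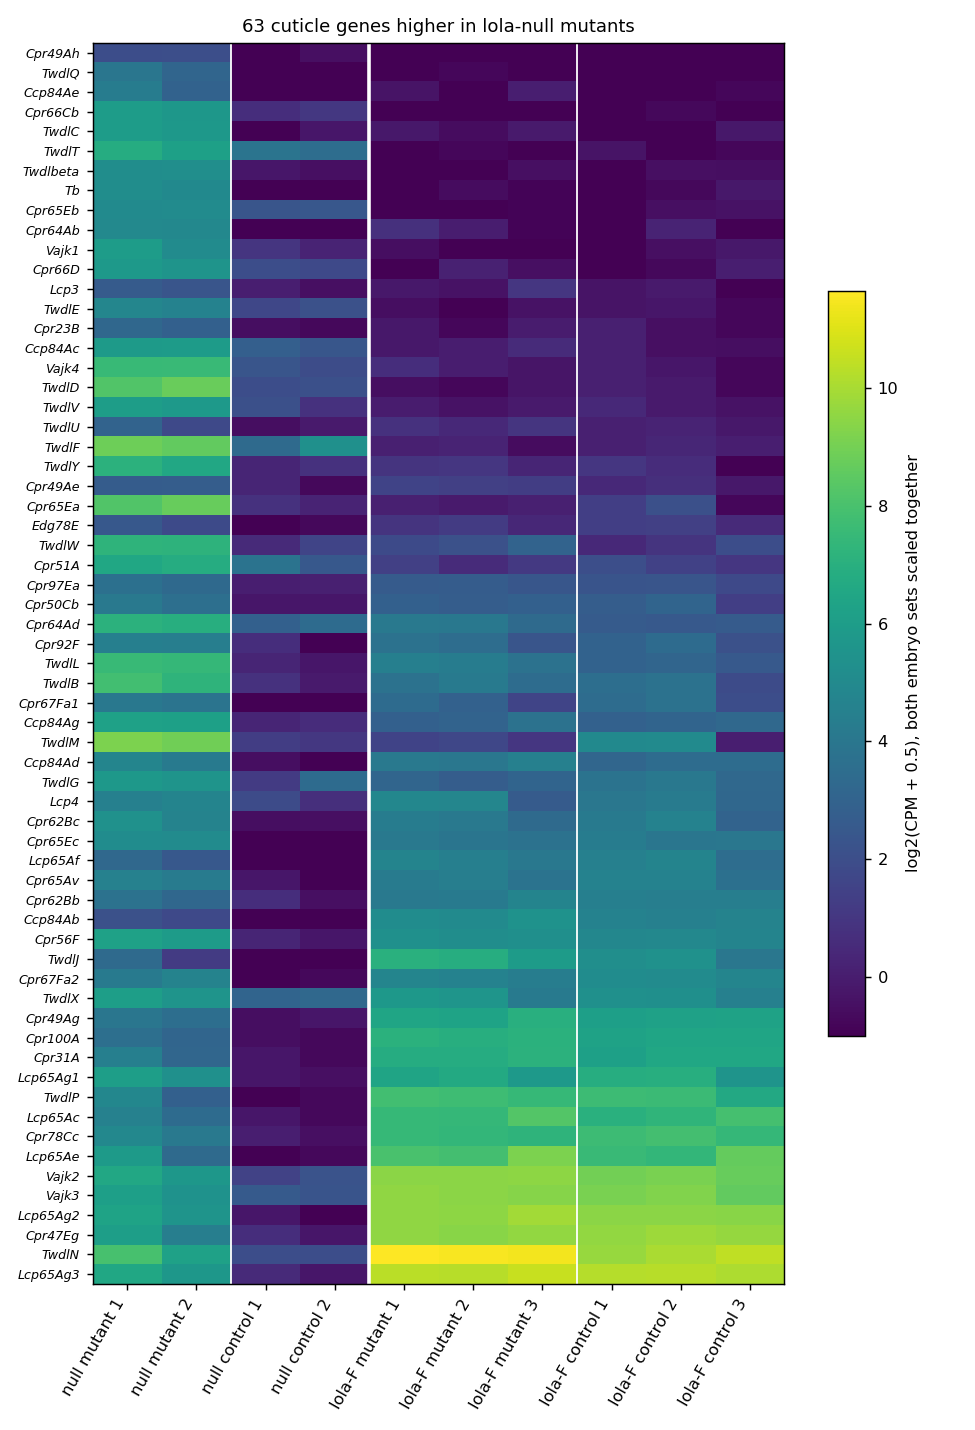
Levels, as log2(CPM + 0.5) with both embryo sets scaled together, of the 63 cuticle genes that were higher in lola-null mutants, with genes in rows and the 10 embryo libraries in columns; rows run from the lowest to the highest mean in lola-F controls. The lola-null control columns are dark in most rows, the lola-null mutant columns are lit in nearly every row, and the lola-F libraries are dark in the upper rows (TwdlD) and brightest in the lowest (Lcp65Ag3).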

How the data were processed

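Whole-embryo RNA went into libraries that keep the strand, per the labels' protocols. STAR 2.5.0c, HTSeq 0.6.1p1 and the build BDGP6 are named in the submitters' processing notes. The strand setting of the counting is not stated in the sources used here, so a gene cannot be told from one overlapping it. The deposited files hold whole-number counts per gene, without normalization. Summary rows were left out. In the lola-null set they held 26.1% and 18.6% of reads in mutants 1 and 2 and 44.5% and 30.6% in controls 1 and 2. Most of these were reads mapped to several places. In lola-F control 1 they held 66.7%, which left 3326811 counts assigned to genes. In the other lola-F libraries they held 6.32% to 7.75%. Of 17387 identifiers 17113 matched the BDGP6.54 annotation (release 115), and 1 more, a former identifier, was read as lola from general knowledge.

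The 4 libraries of the lola-null set were fitted alone in R 4.3.3 with edgeR 4.0.16: filterByExpr, TMM scaling, the quasi-likelihood F test and Benjamini-Hochberg adjustment at 0.05. Each standard error was taken as the size of the log2 fold change over the square root of its F. Floors are 3 counts over a group (0.300 CPM in mutants and 0.252 CPM in controls) and, like intervals, cover counting error only. The difference of effects was tested as an interaction over 10 libraries. DESeq2 1.42.0, other scalings, filters, a fit with the lola-F libraries included, a length offset, a replicate block and fits without 1 library were alternatives. A fit without 1 library leaves a lone library in its group, which is assumed to vary like the other group. The members and lists were chosen with earlier results of these data known. Named were lola, psq, the 12 largest rises and falls of named genes at 5 CPM or more without overlap, up to 4 called genes per list by p (otherwise up to 2 of the most abundant not called), the 6 genes at 20 CPM or more that differed most between the mutants, up to 4 called genes near lola, and the 4 interaction genes of smallest p in each direction; others were chosen after their values were seen. Replicates differed beyond sampling noise, with a chi-square over its degrees of freedom of 77.2 for the mutants and 17.9 for the controls. On simulated counts (9126 genes) the test recovered 10.1% of 99 genes changed 2-fold and 66.7% of 99 changed 4-fold, with 1 unchanged gene called. For the interaction (10678 genes) the shares were 0% of 97 and 10.1% of 99, with 0 unchanged genes called. The simulated libraries carried no trend with gene length, unlike the real ones, so they give no rate of false calls for these data.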

Additional observations from a re-analysis of the deposited data

Results flagged for a closer look

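The difference between the lola-null and the lola-F effect passed its own test, an interaction term over the 10 embryo libraries, in 749 genes as higher and in 183 as lower. The 8 genes with the smallest p, 4 in each direction, were as follows, with values on the log2 scale as lola-null effect minus lola-F effect. The cuticle genes Cpr65Ec, Cpr67Fa2 and Cpr56F differed by 11.42, 8.44 and 6.61, and CG13063, in the stretch of 20 higher genes on chromosome 3L, by 5.55. Cpr65Ec had no count and Cpr67Fa2 1 count in the lola-null controls, so that their fitted values depend on the prior count. For these 4 genes the adjusted p of the difference was 8.31e-05 or 1.24e-04. The FGF ligand gene pyr differed by −2.85, the phosphate transporter gene PXo by −2.74, CG12885 by −8.19 and the fascin gene sn by −1.79, with adjusted p-values of 9.65e-04, 0.00292, 0.00362 and 0.00536. CG12885 had no count in the lola-null mutants, and its fitted value has the same limit.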

How the results depend on the processing

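DESeq2, DESeq2 size factors, upper quartile scaling, the length correction, no filter and the replicate block each kept both lola-null counts within 1.5 times. Higher genes numbered 347 when every library had to hold 10 counts, a filter that removes genes silent in 1 group, and 1818 with the lola-F libraries in the same fit, which changed the genes tested (10848), the scaling and the spread together; which of these moved it was not tested. Without 1 library, counts ran from 266 to 1559 for higher and from 280 to 1924 for lower genes, and the log2 fold change of lola from −1.82 to −0.20. The replicate block gave 549 higher and 630 lower genes. Same-numbered libraries did not deviate together (r = −0.25), so the numbers were not taken as a pairing. A crossed pairing, added once the data had been seen, gave 862 higher and 1233 lower genes. For the difference from the lola-F effect, the replicate block gave 388 and 47 genes, and fits without 1 library 241 to 1342 higher and 52 to 510 lower. Lower genes numbered 335 in DESeq2, 289 with the length trend removed and 521 without the filter; the cause was not tested. Of the 149 named genes with a call, 39 kept it in every alternative. With the length trend removed dpy and pros turned to log2 fold changes of 0.25 and 0.45. Depth limits low levels: a count of 0 over both controls allows up to 0.252 CPM.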
